A study of Homo sapiens with 19 samples.

Results

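Silencing of BRG1 in 501Mel cells, a human melanoma cell line, was described from RNA-seq of 6 of the 19 samples of the series: 3 replicates infected with a lentivirus expressing an shRNA against BRG1 (shBRG1) and 3 with a scramble control (shSCR1). The members were chosen by their labels, without use of any measured value, and the response was followed over all genes rather than over the pigmentation, secreted factor and zinc finger genes alone. The study asked which genes depend on BRG1 in melanoma cells and in Hermes 3A cells, a line of immortalised, untransformed human melanocytes, and other 501Mel samples received an shRNA against MITF with a control labelled shSCR2. Both groups were unsorted bulk cultures of one line, and the shRNAs were Mission constructs in the pLKO vector. The shBRG1 cells were reported to stop dividing and to flatten as senescent cells do. With a single shBRG1 construct, effects of BRG1 loss and effects of that shRNA on other transcripts cannot be told apart, and in bulk RNA a smaller number of cells of a kind and less RNA per cell cannot be told apart either. The labels call the replicates separate samples without saying whether they came from separate infections, so p-values measure the spread between these samples.

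BRG1, encoded by SMARCA4, is an ATPase of the SWI/SNF complexes, which use ATP to slide or evict nucleosomes and so open promoters and enhancers to transcription factors. A cell carries either BRG1 or the related ATPase BRM, encoded by SMARCA2, in each complex, together with core subunits and with accessory subunits that define the BAF and PBAF forms. In the melanocyte lineage BRG1 is known as a cofactor of MITF and SOX10, the transcription factors that keep melanocytes alive and pigmented.

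Between 32941771 and 51442426 reads per replicate were counted on genes with shSCR1, and between 40199601 and 46672770 with shBRG1. Values are given as CPM, read counts scaled to library depth with TMM factors, and a gene was called down- or up-regulated when edgeR's quasi-likelihood test passed a Benjamini-Hochberg adjusted p of 0.05 with a log2 fold change beyond 1. The TMM factors were 0.875 to 0.897 with shSCR1 and 1.12 to 1.14 with shBRG1. With library sizes alone the median log2 fold change of all genes moved from 0.05 to 0.40 and the calls from 3571 down and 4453 up to 2398 down and 6192 up, so each change below is relative to this centre. The choice of scramble control mattered as well. Against the 2 shSCR2 samples of the same line in place of shSCR1, 4321 genes (20.1%) were down-regulated and 6879 (32.0%) up-regulated, and the counts against shSCR2, down and then up, stand in parentheses beside each gene group for which either differs by more than 1.5 times. Counts with library sizes, or with at least 10 counts required in every sample, are added where they turn or level the balance of falls and rises.

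SMARCA4 (ENSG00000127616) measured 207, 226 and 217 CPM with shSCR1 and 41.6, 45.3 and 40.1 CPM with shBRG1, a fall with no overlap between groups (log2 fold change -2.36, SE 0.054, adjusted p = 3.7e-21). SMARCA2, the gene of the alternative ATPase, measured 47.5, 51.7 and 52.5 CPM with shSCR1 and 29.2, 29.3 and 28.3 CPM with shBRG1. Its groups did not overlap, but its log2 fold change of -0.80 (SE 0.055) did not reach the threshold, and against shSCR2 it was -1.02. Of 15 SWI/SNF ATPase and core subunit genes tested, SMARCA4 and SMARCC2, which encodes the BAF170 core subunit, were the 2 down-regulated against shSCR1, where none was up-regulated (6 and 1 against shSCR2, 1 and 1 with library sizes). SMARCC2 stood at 135 CPM with shSCR1 and 60.1 CPM with shBRG1 (log2 fold change -1.17, SE 0.049), a call lost with library sizes (-0.82) and against shSCR2 (-0.83).

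Accessory subunits were called as well. PBRM1, whose product BAF180 defines the PBAF complex, measured 218, 243 and 240 CPM with shSCR1 and 47.9, 43.6 and 46.9 CPM with shBRG1, a change close in size to that of the targeted gene (log2 fold change -2.34, SE 0.054). PHF10, a further PBAF subunit gene, fell from 54.0 to 16.6 CPM, while BICRA, which encodes a subunit of the non-canonical BAF complex, rose from 21.8 to 48.2 CPM. In all, 3 of 12 accessory subunit genes were down-regulated and 1 up-regulated (5 and 2 against shSCR2). Among 19 genes of the CHD, ISWI and INO80 remodellers and related ATPases, 6 were down-regulated and none up-regulated (12 and none against shSCR2), with SMARCA1, an ISWI ATPase, falling from 37.1 to 7.84 CPM and ATRX, a remodeller of heterochromatin, from 118 to 38.8 CPM. Polycomb complexes, which keep developmental genes silent, had 6 of 29 subunit genes down and 2 up (8 and 1 against shSCR2, 1 and 3 with library sizes). BMI1 rose from 56.0 to 170 CPM against shSCR1, but its log2 fold change against shSCR2 was only 0.34, not a call. TET1, which oxidises methylated cytosine, and DNMT3A, which sets new methylation, were the 2 down-regulated among 14 DNA methylation genes against shSCR1 (log2 fold changes -1.82 and -1.55), where none was up-regulated (5 and 1 against shSCR2).

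The response was broad. Of the 20514 genes, 17.4% fell and 21.7% rose past both thresholds, and without the fold threshold 8022 were lower and 8442 higher, so that 4050 genes did not pass the adjusted p. The 3 shBRG1 samples lay entirely below the 3 shSCR1 samples for 8077 genes and entirely above for 8623. Strong changes were more often rises: 1767 genes rose and 1067 fell by more than 2 on the log2 scale, and 158 rose and 39 fell by more than 5.

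The direction of the response differed between gene classes, which also differed in level. Median levels were 4.59 log2 CPM for protein-coding, -0.55 for long intergenic non-coding and -0.52 for antisense genes. Protein-coding genes were down-regulated more often than up-regulated, with 2968 of 14518 down (20.4%), 2215 up (15.3%) and a median log2 fold change of -0.13. Every non-coding class had the opposite balance. Long intergenic non-coding RNA genes were 11.4% down and 41.9% up of 1535 tested, antisense genes 10.2% down and 38.5% up of 1522, sense intronic or overlapping genes 10.4% down and 40.4% up of 230, and small RNA genes 7.23% down and 52.3% up of 235. Processed pseudogenes, copies of spliced transcripts that share reads with their parent genes and are therefore uncertain, were 7.65% down and 34.0% up of 876. The protocol text does not say whether counting used strand, so reads of an antisense gene and of the gene on the other strand cannot be told apart. Protein-coding genes made up 83.1% of all down-regulated and 49.7% of all up-regulated genes.

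Expression level moved with direction in the same way. In the decile of genes with the lowest mean level over the 6 samples (0.115 to 0.309 CPM), 9.65% were down-regulated and 58.2% up-regulated. In the decile with the highest level (107 to 15700 CPM), 20.2% were down-regulated and 4.24% up-regulated. Protein-coding and other genes had the same up-regulated share in the lowest decile, 58.2% each, and the protein-coding share fell to 4.01% in the highest. Grouped by the shSCR1 mean instead, the shares down and up were 0% and 84.3% in the lowest decile and 32.1% and 1.22% in the highest. In this grouping protein-coding genes were up-regulated more often than other genes in decile 3 (31.8% and 24.0%) and less often in decile 6 (11.3% and 17.5%). Grouped by the mean over 6 samples, the up-regulated shares of protein-coding and other genes were 33.6% and 33.8% in decile 3 and 11.7% and 22.8% in decile 6. Whether protein-coding genes rose more often than others at low level thus depended on the grouping. The up-regulated share of all calls was 74.6% for genes under 100 counts per sample, 49.5% from 100 to 1000, 26.5% from 1000 to 10000 and 14.6% from 10000 upwards.

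**Figure D1:**
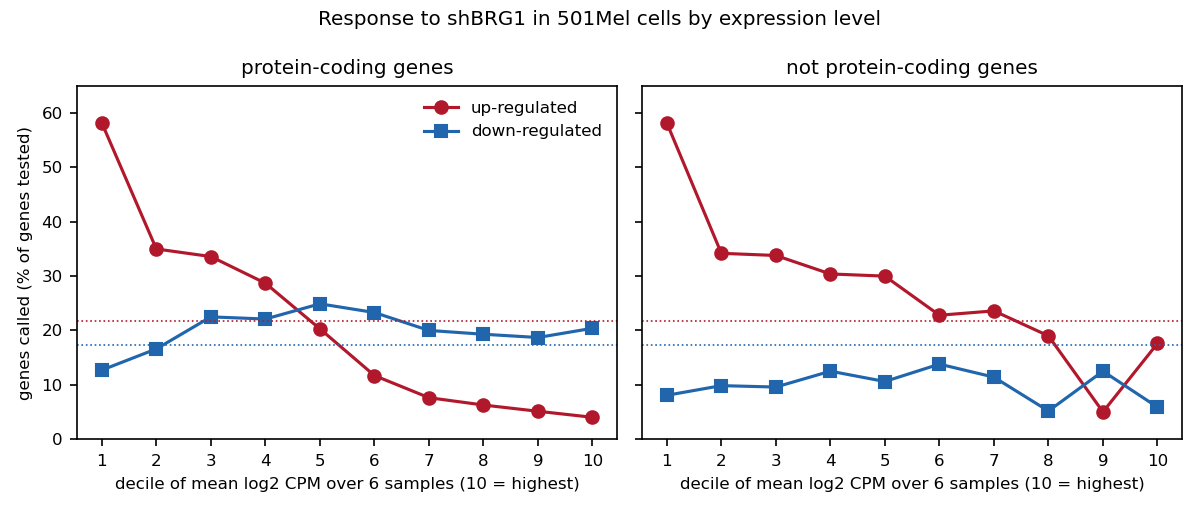
Percent of tested genes called up-regulated (red circles) and down-regulated (blue squares) with shBRG1, by decile of the mean log2 CPM over the 6 samples, for protein-coding genes (left) and other genes (right); dotted lines mark the shares over all genes, 21.7% and 17.4%. The up-regulated share drops from 58.2% in the lowest decile of both panels, while the down-regulated share of protein-coding genes stays between 12.7% and 24.9%.

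The filter on low counts bears on this slope, since a gene absent in one group could pass only through the group in which it was present. Of the tested genes, 16494 reached the filter's minimum of 0.215 CPM in every sample, and these were 18.7% down and 13.4% up with a median of -0.11. A further 1779 genes reached it in every shBRG1 sample and in no shSCR1 sample, 1581 of them up-regulated, and 242 in every shSCR1 sample and in no shBRG1 sample, 240 of them down-regulated. With at least 10 counts required in every sample the calls were near balance, 16.0% down and 15.7% up of 16356 genes. Within that set, without matching for level, protein-coding genes were 17.8% down and 12.6% up, and other genes 9.26% down and 27.5% up.

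More genes were detected with shBRG1 at equal depth. Thinned to the smallest library, the shSCR1 samples held 28431, 28070 and 28419 genes with at least 1 count and the shBRG1 samples 32230, 32115 and 32096. The groups did not overlap, and the difference of means was 3840 genes (exact permutation test, 2-sided p = 0.1, the smallest that 3 against 3 samples allow). Beside this, counts on mitochondrial genes were 7.61%, 6.81% and 7.14% with shSCR1 and 10.4%, 11.4% and 11.4% with shBRG1, and small RNA genes took 1.40% ± 0.0675 and 2.40% ± 0.0797 of counts (SD, n = 3 each). Whether RNA quality or ribosomal RNA depletion took part in these shares was not tested.

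Length and position moved with the calls to a lesser degree. In the quintile of protein-coding genes with the longest span (over 101484 bases), 26.8% were down-regulated and 14.6% up-regulated, against 19.2% and 19.4% in the shortest. By summed exon length the down-regulated share went from 18.6% in the shortest quintile to 24.1% in the longest, while the up-regulated share dropped from 21.5% to 11.2%. Median levels differed between these quintiles as well, from 3.32 to 5.19 log2 CPM by exon length. Chromosome 19 had the largest up-regulated share of its protein-coding genes, 27.4%, and without genes named ZNF this was 18.4%. Among nuclear chromosomes the smallest was on chromosome 14, 8.52%, and the largest down-regulated share was on chromosome 21, 25.5%.

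**Figure D2:**
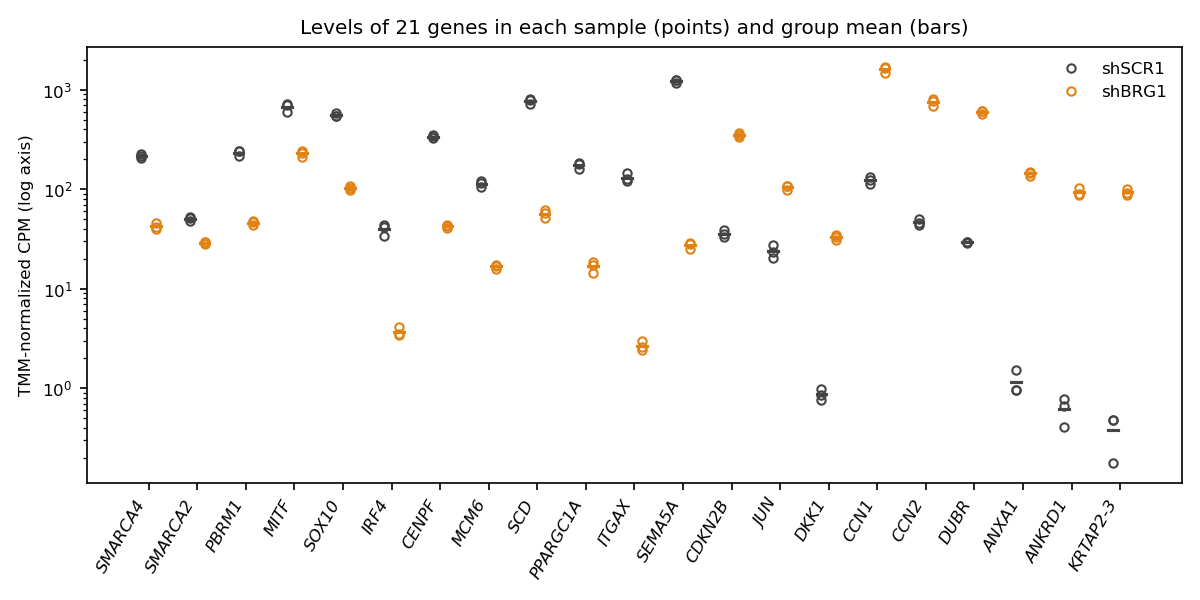
TMM-normalized CPM on a log axis for 21 genes in the 3 shSCR1 samples (grey) and the 3 shBRG1 samples (orange), with each point a sample and each bar the group mean. The naming rule required groups without overlap for most of these genes, and over all 20514 genes tested 8077 lower and 8623 higher genes had none. KRTAP2-3, ANKRD1 and ANXA1 go from about 1 CPM or less to between 87.0 and 148 CPM.

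Pigment cell genes were among the largest losses in absolute terms. PMEL, which forms the fibrils of melanosomes, measured 22200, 23500 and 22500 CPM with shSCR1 and 2660, 2510 and 2530 CPM with shBRG1, and its mean fell by 20170 CPM. TYRP1, a melanin-synthesising enzyme, fell by 6546 CPM and GPNMB, a melanosomal glycoprotein, fell by 2315 CPM. CTSB, encoding the lysosomal protease cathepsin B, fell by 4304 CPM against shSCR1, but against shSCR2 it was higher with shBRG1 (log2 fold change 0.38), so its direction depends on the control. The gains were smaller. CCN1 and CCN2, secreted matricellular proteins and classical YAP targets, gained 1483 and 704.9 CPM, the mitochondrially encoded MT-ND6 gained 1083 CPM and DUBR, a long non-coding RNA, 566.0 CPM. MT-ND6 lies on the light strand opposite other mitochondrial transcripts and its level is therefore uncertain here. Its rise (log2 fold change 1.09) was close to the threshold and was 0.99 without shSCR1 replicate 2.

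Among protein-coding genes with at least 1000 counts per sample, the largest fall was that of NOX5, a calcium-regulated NADPH oxidase, which measured 51.2, 53.4 and 50.6 CPM with shSCR1 and 0.189, 0.366 and 0.464 CPM with shBRG1 (log2 fold change -7.27, SE 0.12). ITGAX, the integrin subunit alpha X better known from myeloid cells, measured 144, 122 and 126 CPM with shSCR1 and 2.58, 2.45 and 3.00 CPM with shBRG1 (log2 fold change -5.61, SE 0.083). The size of this fall depends on the control: its difference from the effect in Hermes 3A cells was -3.20 with shSCR1 and 1.02, not a call, with shSCR2. SEMA5A, an axon guidance semaphorin and one of the more abundant of these transcripts, measured 1180, 1240 and 1240 CPM with shSCR1 and 28.1, 24.9 and 28.8 CPM with shBRG1 (log2 fold change -5.48, SE 0.063). Groups without overlap were a condition for naming these 3 genes. APOD, a lipocalin that carries small lipids (log2 fold change -6.01), OSBPL10, an oxysterol-binding protein (-5.70), DNER, a NOTCH ligand of neurons (-5.11), DCT, the melanogenic dopachrome tautomerase (-5.04), CPXM1, a secreted carboxypeptidase-like protein (-4.87), and DIPK1A, a divergent kinase family member (-4.75), completed the list with PAEP, which encodes glycodelin. PAEP went from 431 to 3.06 CPM against shSCR1, yet its log2 fold change against shSCR2 was -0.45, not a call.

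The largest rises started from near silence. KRTAP2-3, a hair keratin-associated protein gene with close paralogs that may share its reads, measured 0.477, 0.178 and 0.479 CPM with shSCR1 and 91.6, 100 and 88.0 CPM with shBRG1, a 256-fold rise. ANKRD1, a muscle ankyrin repeat protein that is also a YAP and stress-response target, measured 0.405, 0.667 and 0.788 CPM with shSCR1 and 103, 90.3 and 87.0 CPM with shBRG1, a 154-fold rise. ANXA1, the calcium-dependent phospholipid-binding protein annexin A1, measured 1.53, 0.956 and 0.959 CPM with shSCR1 and 148, 137 and 147 CPM with shBRG1. None of the 3 reached 2 CPM in any shSCR1 sample. They were followed by MAGEB6 (log2 fold change 6.12) and MAGEA10 (4.44), cancer-testis antigens, DKK1 (5.27), a secreted WNT inhibitor, ZNF177 (5.07), a zinc finger protein, MARCHF8 (4.91), a membrane ubiquitin ligase, PDGFB (4.61), a growth factor, and SERPINB2 (4.50), the plasminogen activator inhibitor of keratinocytes and macrophages.

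Of non-coding genes with at least 1000 counts, DUBR rose most, with 29.5, 28.9 and 29.7 CPM with shSCR1 and 613, 564 and 609 CPM with shBRG1 (log2 fold change 4.34, SE 0.055). LINC00665 rose from 3.85 to 73.6 CPM and TMEM132D-AS1, antisense to TMEM132D, from 1.42 to 20.6 CPM. LINC02099 fell from 49.1 to 3.31 CPM. LINC00112 and LINC00479 had log2 fold changes of -5.18 and -4.92 against shSCR1 but -0.85 and -0.36 against shSCR2, and those were not calls. The 2 intergenic RNAs with the strongest falls thus depended on the control, whereas the rises of DUBR and LINC00665 were called against either.

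The 250 bases upstream of the RefSeq start of 6 of these genes are shown because they hold motifs of the factor families whose targets are described here, with the motif in capitals, read 5′ to 3′ on the strand of the gene (RefSeq, GRCh38.p14). TYRP1 (chr9:12693135-12693384, plus strand), GPNMB (chr7:23246525-23246774, plus strand) and BCL2A1 (chr15:79971197-79971446, minus strand) hold the M-box TCATGTG bound by MITF-type factors. ANKRD1 (chr10:90921088-90921337, minus strand) and SERPINB2 (chr18:63887455-63887704, plus strand) hold the AP-1 motif TGANTCA, and CCN2 (chr6:131951373-131951622, minus strand) holds the TEAD motif ACATTCC, which TEAD factors bind with YAP.
TYRP1: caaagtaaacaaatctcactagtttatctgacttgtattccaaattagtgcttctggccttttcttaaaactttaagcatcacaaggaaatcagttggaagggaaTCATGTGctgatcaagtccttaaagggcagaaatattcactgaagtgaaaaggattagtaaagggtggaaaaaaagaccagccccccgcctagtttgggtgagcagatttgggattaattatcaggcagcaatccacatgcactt
GPNMB: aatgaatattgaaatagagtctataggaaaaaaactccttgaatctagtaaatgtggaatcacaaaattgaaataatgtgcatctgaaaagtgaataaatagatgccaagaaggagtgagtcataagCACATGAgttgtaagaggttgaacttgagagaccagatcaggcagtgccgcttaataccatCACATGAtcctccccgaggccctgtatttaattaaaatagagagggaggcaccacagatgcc
BCL2A1: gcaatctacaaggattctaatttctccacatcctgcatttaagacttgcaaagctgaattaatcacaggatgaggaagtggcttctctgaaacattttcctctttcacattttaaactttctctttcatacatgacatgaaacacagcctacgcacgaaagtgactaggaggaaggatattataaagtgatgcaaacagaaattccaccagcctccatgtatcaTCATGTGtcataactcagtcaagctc
ANKRD1: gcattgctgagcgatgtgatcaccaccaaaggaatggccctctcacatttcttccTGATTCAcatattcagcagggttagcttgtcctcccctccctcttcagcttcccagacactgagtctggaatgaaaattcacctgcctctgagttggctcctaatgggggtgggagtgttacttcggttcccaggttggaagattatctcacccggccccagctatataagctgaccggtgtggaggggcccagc
SERPINB2: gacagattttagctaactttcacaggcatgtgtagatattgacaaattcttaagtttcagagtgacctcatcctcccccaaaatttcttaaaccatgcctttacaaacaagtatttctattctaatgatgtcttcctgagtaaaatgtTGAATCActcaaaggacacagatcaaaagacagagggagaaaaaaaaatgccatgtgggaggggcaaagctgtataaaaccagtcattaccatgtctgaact
CCN2: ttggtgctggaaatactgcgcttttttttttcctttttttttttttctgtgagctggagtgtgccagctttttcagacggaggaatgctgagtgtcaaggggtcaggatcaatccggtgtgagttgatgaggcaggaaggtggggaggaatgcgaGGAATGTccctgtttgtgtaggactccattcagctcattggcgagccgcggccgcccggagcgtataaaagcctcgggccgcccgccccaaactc
Both strands were searched, and only the motif named for each gene is marked. GPNMB, which fell, also holds an unmarked TGAGTCA that matches the AP-1 pattern. A match is a description of the sequence and not a binding site measured in these cells.

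Over windows from 250 bases before to 50 after each start, 11670 of the 14518 protein-coding genes tested were matched. The M-box was in 210 of them (1.80%, against 2.99% of all 27305 promoters), and 25.7% of these were down-regulated against 19.9% of genes without it. Matches to the loose AP-1 pattern TGANTCA were in 586 genes (5.02%, against 7.76% of all promoters), of which 21.8% were up-regulated against 14.2% without, and TEAD motifs in 251, of which 17.9% were up-regulated against 14.6%. Genes with an ETS motif (CCGGAAG, 17.6% of windows and 10.7% of all promoters) were down-regulated in 12% against 21.8% without, and genes with the YY1 motif (AAGATGGCG, 3.54% and 1.85%) in 13.6% against 20.3%. Genes with and without these motifs also differed in median level, by 3.65 against 4.77 log2 CPM for AP-1 and 5.54 against 4.49 for ETS. Genes in the quintile with the fewest CpG in the promoter were 27.5% up-regulated at a median of 1.19 log2 CPM, and those in the CpG-richest quintile 8.35% at 5.53. The motif shares were not separated from level or CpG content.

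**Figure D3:**
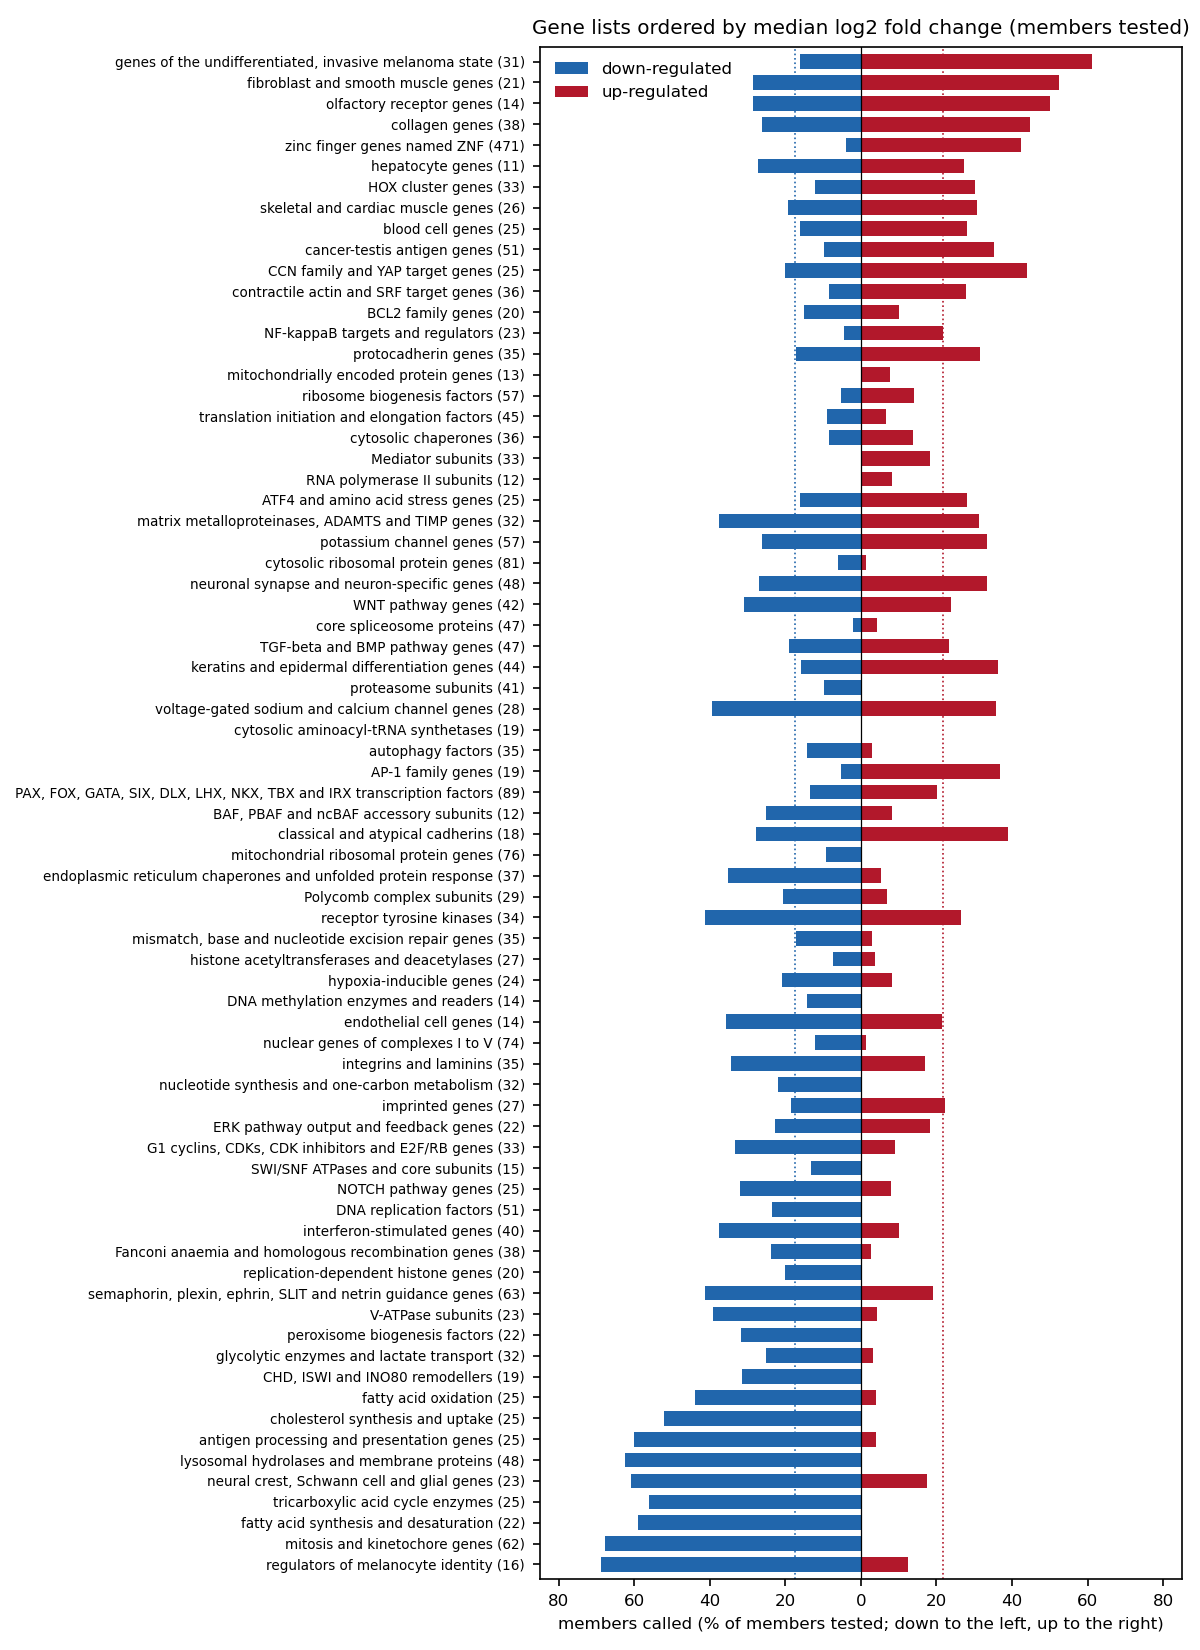
For each of 73 gene lists, the percent of tested members called down-regulated (blue, to the left) and up-regulated (red, to the right) with shBRG1, ordered by median log2 fold change, with the number tested in parentheses and dotted lines at the shares over all genes. Regulators of melanocyte identity, with 11 of 16 down, stand at the bottom and genes of the undifferentiated melanoma state, with 19 of 31 up, at the top.

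Most of the transcription factors that define the melanocyte fell. Of 16 regulators tested, 11 were down-regulated and 2 up-regulated (10 and 1 against shSCR2), with a median log2 fold change of -1.43 against 0.05 over all genes. MITF measured 597, 706 and 712 CPM with shSCR1 and 233, 213 and 243 CPM with shBRG1 and SOX10 549, 580 and 543 CPM with shSCR1 and 104, 98.3 and 107 CPM with shBRG1, without overlap in either gene (log2 fold changes -1.55 and -2.44, SE 0.063 and 0.050). Both factors were well expressed in every shSCR1 sample. IRF4, a lymphoid and melanocyte transcription factor that drives tyrosinase, measured 33.7, 41.5 and 43.3 CPM with shSCR1 and 3.43, 3.51 and 4.09 CPM with shBRG1 and fell most (log2 fold change -3.43, SE 0.096). Among the MITF relatives, TFEB fell from 41.2 to 5.37 CPM while TFE3 rose from 56.9 to 179 CPM. LEF1, the WNT effector, rose from 60.3 to 160 CPM, with a log2 fold change of 0.97 against shSCR2, just short of a call.

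Neural crest, Schwann cell and glial genes fell with them, 14 of 23 tested down and 4 up (median -1.21). SOX8, a SOX10 relative, went from 18.0 to 1.45 CPM and the glial calcium-binding protein gene S100B from 34.0 to 6.86 CPM, whereas MSX1, a homeobox gene of the early neural crest border, went from 5.50 to 23.5 CPM. Genes of the undifferentiated, invasive melanoma state went the other way, with 19 of 31 tested up-regulated and 5 down (median 1.58, and 3 down and 19 up against shSCR2). DKK1 was among the largest rises of this list, with 0.858, 0.756 and 0.993 CPM with shSCR1 and 33.3, 34.7 and 31.1 CPM with shBRG1. FOSL1, the AP-1 member of that state, rose from 4.88 to 23.5 CPM, whereas POU3F2, a factor of invasive melanoma cells also known as BRN2, fell from 76.5 to 16.8 CPM (log2 fold change -2.19, SE 0.071).

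Most mitotic genes fell. Of 62 mitosis and kinetochore genes, 42 were down-regulated and none up-regulated (median -1.34). CENPF, a kinetochore protein, measured 327, 347 and 340 CPM with shSCR1 and 42.8, 40.7 and 43.5 CPM with shBRG1 (log2 fold change -3.0, SE 0.05) and HMMR, a spindle assembly factor, fell from 94.3 to 10.7 CPM. Replication factors had 12 of 51 down, none up and a median of -0.57 (36 and none against shSCR2). MCM6, a subunit of the replicative helicase, measured 105, 121 and 116 CPM with shSCR1 and 17.4, 15.9 and 17.0 CPM with shBRG1 and PCNA, the polymerase clamp, fell from 278 to 69.2 CPM. Most mitosis genes were down-regulated against either control (59 of 62 with shSCR2), while the number of replication genes called depended on which was used.

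Of 33 G1 regulators, 11 were down- and 3 up-regulated (5 and 5 with library sizes). CDK2, the S-phase kinase whose gene lies beside PMEL, fell from 1650 to 230 CPM. CDKN2B, which encodes the p15 inhibitor of cyclin D-dependent kinases, measured 39.3, 35.4 and 32.8 CPM with shSCR1 and 338, 350 and 367 CPM with shBRG1, a 9.78-fold rise. CDK6 rose from 13.3 to 53.9 CPM against shSCR1 but had a log2 fold change of 0.07 against shSCR2. CCND1, cyclin D1, fell from 1460 to 414 CPM, and its log2 fold change against shSCR2 was -0.75, not a call.

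Among Fanconi anaemia and homologous recombination genes 9 of 38 were down and 1 up (23 and none against shSCR2, 3 and 2 with library sizes), with FANCI at 116 and 36.4 CPM. Of 35 excision and mismatch repair genes, 6 were down and 1 up (12 and 1 against shSCR2), with the single-strand break sensor PARP1 at 327 and 88.8 CPM. GADD45A, a growth arrest gene, rose from 21.4 to 106 CPM. Of 20 BCL2 family genes, 3 were down and 2 up (3 and 4 against shSCR2, 3 and 6 with library sizes). BCL2A1, a survival gene of the melanocyte lineage and an MITF target, fell from 52.8 to 3.11 CPM (log2 fold change -4.09, SE 0.073). BCL2 fell from 95.3 to 25.5 CPM and PMAIP1, the BH3-only protein NOXA, rose from 4.77 to 18.7 CPM, and neither was called against shSCR2 (-0.96 and 0.95).

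Histone genes of the replication-dependent class turned with the control. Of 20 tested, 4 were down and none up against shSCR1 (1 and 1 with library sizes), and none down and 15 up against shSCR2. H1-2, a linker histone, had a log2 fold change of -2.50 against shSCR1 and 1.43 against shSCR2. Transcripts of this class lack a poly(A) tail, and how library preparation took part in the difference was not tested.

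Mitochondrial carbon metabolism fell in part. Of 25 tricarboxylic acid cycle enzymes, 14 were down-regulated and none up-regulated (median -1.26, and 18 and 1 against shSCR2), led by OGDH, a subunit of the 2-oxoglutarate dehydrogenase complex (165 to 26.8 CPM), and SUCLG2, a succinyl-CoA ligase subunit (57.0 to 9.61 CPM). The nuclear genes of the respiratory complexes moved little by comparison, with 9 of 74 down and 1 up and a median of -0.38 (18 and 1 against shSCR2). NDUFS1, the largest complex I subunit, was among those that fell (259 to 93.6 CPM). Of 13 mitochondrially encoded protein genes, 1 was up and none down (none down and 2 up against shSCR2). PPARGC1A, the PGC1-alpha coactivator of mitochondrial biogenesis and an MITF target in melanoma, measured 159, 185 and 181 CPM with shSCR1 and 17.3, 14.5 and 18.4 CPM with shBRG1 (log2 fold change -3.39, SE 0.075).

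Lipid synthesis was among the groups with the largest down-regulated shares. Fatty acid synthesis and desaturation had 13 of 22 genes down and none up (11 and 1 against shSCR2) with a median of -1.32. Cholesterol synthesis and uptake had 13 of 25 down and none up (12 and 2 against shSCR2) with a median of -1.01. SCD, the stearoyl-CoA desaturase, measured 727, 803 and 787 CPM with shSCR1 and 61.7, 50.9 and 58.0 CPM with shBRG1, a 13.6-fold fall. INSIG1, the sterol sensor that restrains SREBP, fell from 226 to 52.2 CPM against shSCR1, with a log2 fold change of -0.81 against shSCR2. Fatty acid oxidation had 11 of 25 down and 1 up (9 and 3 against shSCR2) with a median of -0.98, including the mitochondrial carnitine palmitoyltransferase CPT2 (69.7 to 13.9 CPM).

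Of 32 glycolytic genes 8 were down and 1 up (14 and 5 against shSCR2), with the platelet-type phosphofructokinase PFKP at 457 and 46.7 CPM and the pyruvate dehydrogenase kinase PDK3 at 47.5 and 7.41 CPM. Nucleotide and one-carbon genes had 7 of 32 down and none up (19 and none against shSCR2). Targets of ATF4, the factor of amino acid stress, had 4 of 25 down and 7 up, with DDIT3, the stress factor CHOP, rising from 41.9 to 202 CPM. CBS, cystathionine beta-synthase, fell from 192 to 56.3 CPM, a call lost against shSCR2 (-0.56).

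Few genes of the protein synthesis machinery were called against shSCR1. Cytosolic ribosomal protein genes had 5 of 81 down and 1 up (11 and 2 against shSCR2, 5 and 7 with library sizes) and a median of 0.07. With at least 10 counts in every sample 5 of them were down and 5 up. RPL3 (1040 to 281 CPM) and RPL19 (862 to 285 CPM) were among the 5 down against shSCR1. Of 47 core spliceosome genes 1 was down and 2 up (6 and none against shSCR2), and none of 19 cytosolic aminoacyl-tRNA synthetase genes was called in either direction against shSCR1. Ribosome biogenesis factors had 3 of 57 down and 8 up against shSCR1 but 15 down and none up against shSCR2. NCL, the nucleolar protein nucleolin, fell from 973 to 269 CPM. FBL and GAR1, core proteins of the small nucleolar ribonucleoproteins, rose to 217 and 135 CPM, with log2 fold changes of only 0.49 and 0.78 against shSCR2. Mediator subunits, 6 of 33 up and none down against shSCR1, were 2 down and none up against shSCR2, and MED10 had log2 fold changes of 1.38 and 0.57. The synthetases (6 down against shSCR2), the proteasome (4 of 41 down, 13 against shSCR2, 3 down and 3 up with library sizes), cytosolic chaperones (3 of 36 down and 5 up, 17 and 3 against shSCR2) and mitochondrial ribosomal proteins (7 of 76 down, 28 against shSCR2, 4 down and 5 up with library sizes) shared this dependence on the control.

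In the secretory pathway 13 of 37 endoplasmic reticulum chaperone and unfolded protein response genes were down and 2 up (7 and 6 against shSCR2). PDIA3, the disulfide isomerase ERp57 that also loads MHC class I, measured 339, 362 and 361 CPM with shSCR1 and 47.0, 47.7 and 49.6 CPM with shBRG1 (log2 fold change -2.88, SE 0.05). SEC61A1, the protein-conducting channel, rose from 324 to 773 CPM, a call lost against shSCR2 (0.39). CCT7, a subunit of the TRiC chaperonin, fell from 467 to 145 CPM.

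Lysosomal genes had 30 of 48 members down and none up against shSCR1, a median of -1.17, with 11 down and 2 up against shSCR2. CTSF, cathepsin F, measured 317, 362 and 332 CPM with shSCR1 and 33.1, 36.1 and 35.0 CPM with shBRG1, although it had a log2 fold change of -0.79 against shSCR2. Proton pump genes followed, with 9 of 23 V-ATPase subunits down and 1 up (4 and 3 against shSCR2), and its accessory protein gene ATP6AP1 went from 898 to 135 CPM with a log2 fold change of -0.97 against shSCR2. WIPI1, an autophagosome protein of melanosome formation, fell from 370 to 54.5 CPM, while 5 of 35 autophagy genes were down and 1 up (6 and 4 against shSCR2, 3 and 4 with library sizes). Against either control lysosomal falls outnumbered rises, but far fewer members were called against shSCR2.

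Signalling genes moved in both directions. Of 25 CCN family and YAP target genes tested, 11 were up-regulated and 5 down-regulated (3 down and 11 up against shSCR2). CCN1 measured 133, 125 and 114 CPM with shSCR1 and 1650, 1700 and 1480 CPM with shBRG1, CCN2 44.1, 50.1 and 46.0 CPM with shSCR1 and 798, 765 and 692 CPM with shBRG1, and VGLL3, a TEAD cofactor, rose from 0.466 to 9.84 CPM. In all 3 genes the lowest shBRG1 sample lay above the highest shSCR1 sample, as it did for 8623 of the 20514 genes tested. For VGLL3 the naming rule required this. Contractile actin and SRF targets had 10 of 36 up and 3 down, with the focal adhesion protein gene ZYX rising from 16.2 to 191 CPM and the smooth muscle calponin gene CNN1 from 0.388 to 13.5 CPM, while MYH10, non-muscle myosin IIB, fell from 843 to 225 CPM. AP-1 family genes had 7 of 19 up and 1 down (2 down and 7 up against shSCR2), and JUN measured 27.5, 23.5 and 20.6 CPM with shSCR1 and 107, 109 and 99.1 CPM with shBRG1.

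Among the 22 ERK output genes 5 were down and 4 up (3 and 7 against shSCR2, 5 and 6 with library sizes), and SPRY2, a feedback inhibitor, rose from 51.8 to 129 CPM. In the TGF-beta and BMP list 9 of 47 were down and 11 up (19.1% and 23.4%, against 17.4% and 21.7% over all genes). ID3, a BMP-responsive inhibitor of bHLH factors, rose from 17.2 to 204 CPM and GDF11, a TGF-beta family ligand, fell from 84.1 to 5.08 CPM. In the WNT list 13 of 42 were down and 10 up (10 and 10 with library sizes), with the receptor-degrading ligase RNF43 rising from 15.7 to 83.7 CPM and the inhibitor APCDD1 falling from 457 to 84.1 CPM. NOTCH pathway genes had 8 of 25 down and 2 up (3 and 6 against shSCR2), with NOTCH3 going from 45.3 to 5.40 CPM. Receptor tyrosine kinases had 14 of 34 down and 9 up (7 and 11 against shSCR2, 11 and 12 with library sizes). DDR1, a collagen receptor, rose from 1.34 to 11.5 CPM and CSF1R, the macrophage colony-stimulating factor receptor, from 0.456 to 4.31 CPM. NF-kappaB genes had 5 of 23 up and 1 down (none down and 7 up against shSCR2), with the adaptor TRAF1 rising from 0.591 to 8.71 CPM and the inhibitor NFKBIA from 8.71 to 34.9 CPM.

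The calls of immune recognition genes depended on the control. Of 25 antigen processing and presentation genes 15 were down-regulated and 1 up-regulated against shSCR1 (median -1.17), but 3 and 3 against shSCR2. HLA-DPA1, an MHC class II chain, measured 6.77, 6.20 and 6.44 CPM with shSCR1 and 0.453, 0.405 and 0.287 CPM with shBRG1 (log2 fold change -4.06, SE 0.16), while TAPBP, the peptide-loading factor tapasin, rose from 44.5 to 98.8 CPM. Of 40 interferon-stimulated genes tested, 15 were down and 4 up (10 and 12 against shSCR2). OASL, an interferon-induced antiviral protein, measured 3.60, 2.69 and 3.01 CPM with shSCR1 and 0.0189, 0.193 and 0.265 CPM with shBRG1. The exonuclease gene ISG20 fell from 85.8 to 13.5 CPM. GBP1, an interferon-induced GTPase, rose from 0.664 to 7.19 CPM.

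Matrix genes moved in both directions. Collagen genes had 17 of 38 up and 10 down (6 down and 21 up against shSCR2) with a median of 0.93. COL5A1, a fibril-nucleating collagen chain, measured 3.22, 3.80 and 4.04 CPM with shSCR1 and 42.8, 45.6 and 42.7 CPM with shBRG1 (log2 fold change 3.58, SE 0.08) and COL20A1 rose from 2.17 to 42.4 CPM. COL6A3, a chain of the beaded collagen VI, went from 15.2 to 0.838 CPM against shSCR1 but had a log2 fold change of -0.18 against shSCR2. Integrins and laminins had 12 of 35 down and 6 up (11 and 14 against shSCR2), and ITGA7, a laminin receptor subunit, fell from 686 to 33.2 CPM (log2 fold change -4.37, SE 0.061), while ITGA10, a collagen receptor subunit, rose from 2.72 to 16.3 CPM. MMP2, gelatinase A, fell from 42.4 to 4.89 CPM in a list of proteases and inhibitors that was 12 of 32 down and 10 up (6 and 17 against shSCR2, 10 and 13 with library sizes). With at least 10 counts in every sample 10 were down and 2 up.

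Guidance genes of the semaphorin, plexin, ephrin, SLIT and netrin families were 26 of 63 down and 12 up (17 and 19 against shSCR2). Beside SEMA5A, the plexin C1 gene PLXNC1, a semaphorin receptor, measured 1830, 2010 and 2010 CPM with shSCR1 and 183, 151 and 180 CPM with shBRG1 (log2 fold change -3.51, SE 0.068). NRP1, neuropilin 1, rose from 0.146 to 2.80 CPM. Cadherins had 7 of 18 up and 5 down (3 down and 6 up against shSCR2), with P-cadherin (CDH3) falling from 215 to 62.5 CPM. Protocadherins, 11 of 35 up and 6 down, were 29 up and 1 down against shSCR2.

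Genes of other tissues were called in both directions at low level. Of 44 tested keratin and epidermal genes (of 120 listed), 16 were up and 7 down, and 33 of the 44 had under 100 counts per sample. Their summed level did not differ by group, 271 to 277 CPM with shSCR1 and 272 to 277 CPM with shBRG1. KRT17, a keratin of stressed epidermis, rose from 0.0495 to 2.19 CPM, and CLDN1, a tight junction claudin, measured 0.0238, 0 and 0.0342 CPM with shSCR1 and 2.17, 2.16 and 2.19 CPM with shBRG1. Fibroblast and smooth muscle genes had 11 of 21 up and 6 down (3 down and 11 up against shSCR2), and their sum was 1020 to 1220 CPM with shSCR1 and 1400 to 1520 CPM with shBRG1. Endothelial genes had 5 of 14 down and 3 up (3 and 9 against shSCR2, 4 and 4 with library sizes), with sums of 85.7 to 93.5 CPM with shSCR1 and 31.8 to 35.1 CPM with shBRG1. Blood cell genes had 4 of 25 down and 7 up (4 and 15 against shSCR2), with sums of 99.2 to 123 CPM and 159 to 175 CPM. Among defining markers, the basal keratinocyte genes KRT5 and KRT14 had at most 3 and 4 counts in any sample, the pan-leukocyte gene PTPRC at most 2, the endothelial genes CDH5 and VWF at most 23 and 16, and the fibroblast genes COL1A2 and PDGFRA at most 10 and 44. Whether cells of another type took part in these sums was not tested.

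Neuron-specific genes were 16 of 48 up and 13 down, but 9 down and 6 up with at least 10 counts in every sample. The dendritic protein gene MAP2 rose from 22.7 to 82.0 CPM and the synaptic adhesion protein gene NLGN2 fell from 84.6 to 9.73 CPM. Potassium channel genes were 19 of 57 up and 15 down, but 12 down and 10 up with at least 10 counts in every sample. KCNAB2, a channel beta subunit, went from 564 to 45.3 CPM. Muscle genes were 8 of 26 up and 5 down (1 down and 13 up against shSCR2), and LDB3, a Z-disc protein, went from 95.4 to 5.08 CPM. Cancer-testis genes had 18 of 51 up and 5 down, with TDRD7 falling from 74.6 to 14.5 CPM beside the rises of MAGEB6 and MAGEA10. Of 27 imprinted genes 6 were up and 5 down (22.2% and 18.5%, against 21.7% and 17.4% over all genes). With at least 10 counts in every sample 5 of them were up and 5 down. PEG3, a zinc finger gene expressed from the paternal allele, measured 0.191, 0.0667 and 0.24 CPM with shSCR1 and 20.9, 19.4 and 19.5 CPM with shBRG1. ATP10A, an aminophospholipid flippase, fell from 238 to 16.1 CPM. HOX cluster genes had 10 of 33 up and 4 down, with HOXB6 rising from 1.34 to 6.53 CPM, HOXB8 from 3.90 to 18.1 CPM, and HOXA13 falling from 9.73 to 1.95 CPM. For comparison, 200 of 471 ZNF genes were up and 19 down.

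The transcriptome also gained genes that shSCR1 samples did not show at all. Of 8316 genes with 0 counts in every shSCR1 replicate, 1188 had at least 1 count in every shBRG1 replicate, 54 at least 10 and 2 at least 100. In the other direction, 124 of 4026 genes with 0 counts in every shBRG1 replicate had at least 1 count in every shSCR1 replicate, 2 at least 10 and none at least 100. The 1188 were 271 protein-coding, 243 long non-coding, 109 antisense and 318 pseudogenes, among other types. MAGEB16, a cancer-testis gene, had 163, 164 and 168 counts with shBRG1, at least 128-fold higher than a floor of 3 counts over the shSCR1 group.

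Some called genes lay side by side on their chromosomes. Taking the tested protein-coding genes in chromosomal order (GENCODE 29, GRCh38, not the build of the reads), 44 runs of at least 5 successive genes were called in one direction, 26 up and 18 down. Genes that passed the filter only through the shBRG1 samples could hardly be called down, and this favours rising runs. Of 1779 such genes over all classes, 88.9% were up-regulated and none down-regulated. Without runs that held a ZNF gene, 11 were up and 18 down, and 8 held at least 7 genes. The longest was on chromosome 17, where 10 successive keratin and keratin-associated protein genes from KRT39 to KRT31 were up-regulated (chr17:40958417-41397592). In it KRTAP2-1 had 2, 0 and 0 counts with shSCR1 and 317, 353 and 272 with shBRG1, beside KRTAP2-3. Apart from KRTAP2-3, no gene of this run had more than 8 counts in any shSCR1 sample. Those genes passed the filter only through the shBRG1 samples, so the direction of this run was largely fixed by the filter. A run of 8 on chromosome 1 held S100 and epidermal differentiation genes (chr1:151982915-153567890, median log2 fold change 2.17). In it S100A11, a calcium-binding protein, had 1761, 1908 and 1199 counts with shSCR1 and 10453, 10956 and 9401 with shBRG1 (log2 fold change 2.29), S100A10, the annexin A2 partner, a log2 fold change of 1.66, and TCHH, the hair follicle protein trichohyalin, 6, 5 and 4 counts against 118, 152 and 119. TCHH, SPRR2D, S100A5 and S100A3 had at most 10 counts in any shSCR1 sample. They too passed the filter only through the shBRG1 samples, which largely fixed their direction.

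Other runs fell. On chromosome 9, 7 genes from LCN12 to UAP1L1 fell (chr9:136949551-137084539, median -2.09), among them the lipid transporter ABCA2 (-3.25) and PTGDS, the prostaglandin D2 synthase, with 157, 131 and 70 counts against 1, 0 and 0. On chromosome 19, 7 genes from CD22 to HAUS5 fell (median -2.59). Further rises were those of 7 genes from ARMCX5 to BEX4 on the X chromosome (median 2.21), of which BEX1 had 0, 1 and 1 counts against 27, 27 and 18, of 7 genes from NIPAL1 to ZAR1 on chromosome 4 (median 1.70), where the microtubule factor SLAIN2 (1.19) was not called against shSCR2 (0.71), and of 7 genes from SNX11 through HOXB2 (1.87) to HOXB6 on chromosome 17 (median 1.82). Apart from ARMCX5, no gene of the first of these runs had more than 14 counts in any shSCR1 sample. Most genes of that run likewise passed the filter only through the shBRG1 samples, which largely fixed their direction. The same held for CNGA1 (2, 1 and 2 counts with shSCR1) and ZAR1 (9, 6 and 4) of the run on chromosome 4. It also held for SKAP1 (10, 8 and 3) of the run that ends at HOXB6. PMEL and CDK2 shared a falling run of 5 genes on chromosome 12.

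**Figure D4:**
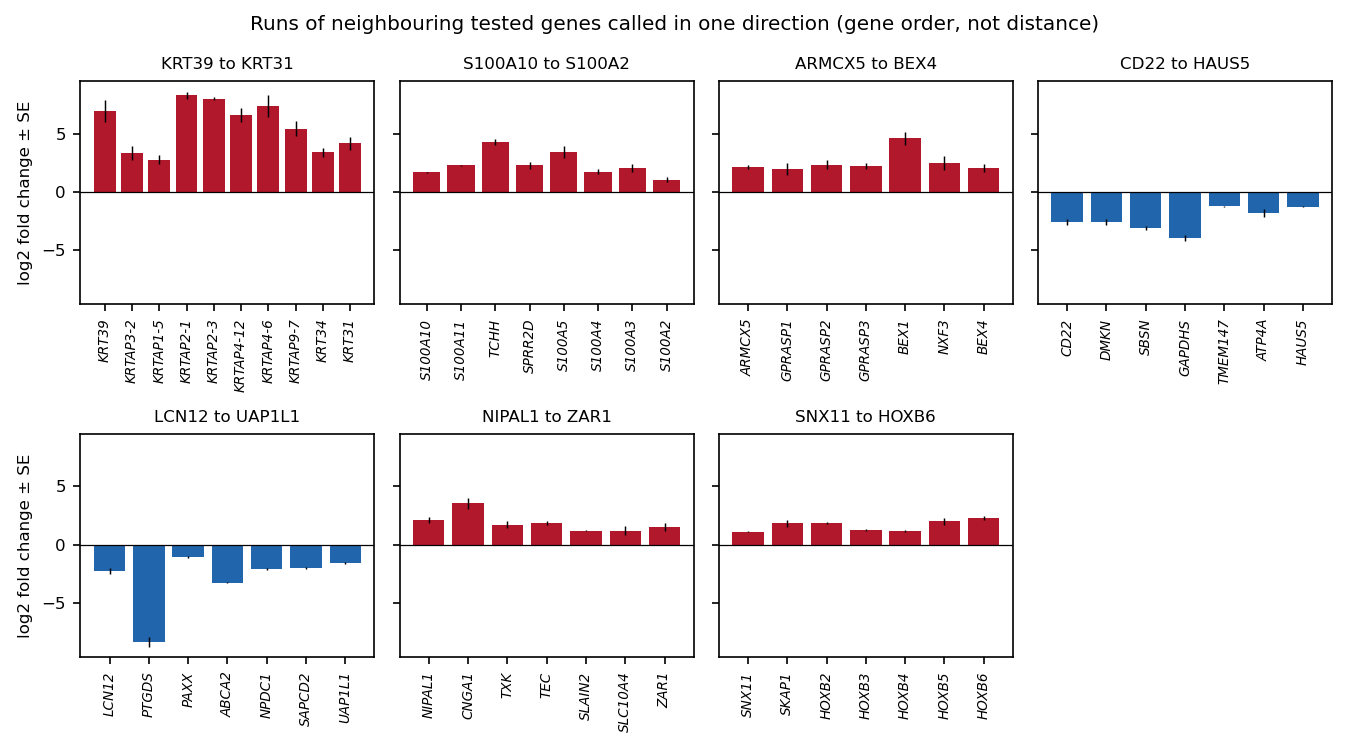
Fitted log2 fold change with shBRG1 (bars) and its SE (lines) for each gene of 7 runs of at least 7 successive tested protein-coding genes called in one direction that held no ZNF gene; genes stand in chromosomal order and spacing is not to scale. KRT39 and KRTAP4-6 had 0 counts in every shSCR1 sample, so the size of their bars is not fixed by the counts.

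Genes near regulatory elements occupied by BRG1 and its partners were down-regulated more often than the rest. Of 1384 listed genes that the study annotated to sites with MITF, SOX10, BRG1 and the active mark H3K27ac, 1151 were tested, and of these 374 were down-regulated (32.5%) and 114 up-regulated (9.90%), with a median of -0.50 beside 0.05 over all genes and -0.13 over protein-coding genes. Against shSCR2 453 were down and 163 up. The list was made by the study from binding in these 501Mel cells, in which active genes are the more likely to be marked, and whether expression level set this share was not tested.

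The response was then set against that of Hermes 3A cells (3 shSCR and 3 shBRG1 samples) in 1 fit, with a contrast that tested the difference between the effects. The study grew Hermes 3A cells with TPA, cholera toxin, stem cell factor and endothelin-1, and lists none of these for 501Mel cells. Line and culture medium therefore cannot be told apart below. SMARCA4 fell alike, by log2 fold changes of -2.35 in 501Mel and -2.34 in Hermes 3A cells, a difference of -0.01 (SE 0.070, adjusted p = 0.96). In the same fit 3661 genes were down and 4630 up in 501Mel cells, and 705 down and 1362 up in Hermes 3A cells. The effect was lower in 501Mel cells for 3224 of 21697 genes (14.9%) and higher for 2610 (12%).

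Lineage factors differed between the lines. In Hermes 3A cells MITF had log2 fold changes of -0.40 and SOX10 of -0.36, short of the threshold, and the differences from 501Mel cells were -1.15 (SE 0.079) and -2.07 (SE 0.066). Of 17 melanocyte regulators, 10 were lower and 2 higher in 501Mel cells, and none of them was called in Hermes 3A cells. TYRP1, with 30100 and 13200 CPM in Hermes 3A cells, fell there too, by 1.19 on the log2 scale, and the difference was -2.84. DCT fell in both lines, with a log2 fold change of -3.21 in Hermes 3A cells and a difference of -1.83 (SE 0.32).

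The effect on interferon-stimulated genes differed between the lines. Of 44 tested, 31 were lower and 4 higher in 501Mel cells, with medians of -0.62 in 501Mel and 0.98 in Hermes 3A cells, where 21 were up-regulated and none down-regulated. With shSCR2 as the 501Mel control 20 were lower and 5 higher, but the 501Mel calls themselves were then 10 down and 12 up, so that the direction of the list in 501Mel cells depends on the control. OASL had log2 fold changes of -4.30 and 2.07, a difference of -6.37 (SE 0.32), and its mean went from 5.06 to 21.1 CPM in Hermes 3A cells. GBP1 rose in both, by 3.44 and 2.37. For antigen presentation 15 of 26 genes were lower and none higher (5 and 4 with shSCR2), and for lysosomal genes 26 of 48 were lower and 2 higher (5 and 1 with shSCR2).

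Metabolic and division genes differed in degree. Of 25 tricarboxylic acid cycle genes 12 were lower in 501Mel cells and none higher, with medians of -1.26 and -0.04, and of 22 fatty acid synthesis genes 10 were lower, with medians of -1.31 and -0.12. Mitosis genes had medians of -1.33 and -0.78, with 42 of 62 down-regulated in 501Mel and 6 in Hermes 3A cells, and 12 were lower and 1 higher in 501Mel cells. Cholesterol genes had medians of -1.01 and -0.52, with 13 of 25 down-regulated in 501Mel and 5 in Hermes 3A cells, and 4 were lower and 1 higher. The share of cholesterol genes that were lower was near that over all genes, and that of mitosis genes little above it. PPARGC1A, at 3.02 CPM in Hermes 3A control cells against 151 CPM in 501Mel, had a log2 fold change of 0.97 there and a difference of -4.35 (SE 0.13).

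**Figure D5:**
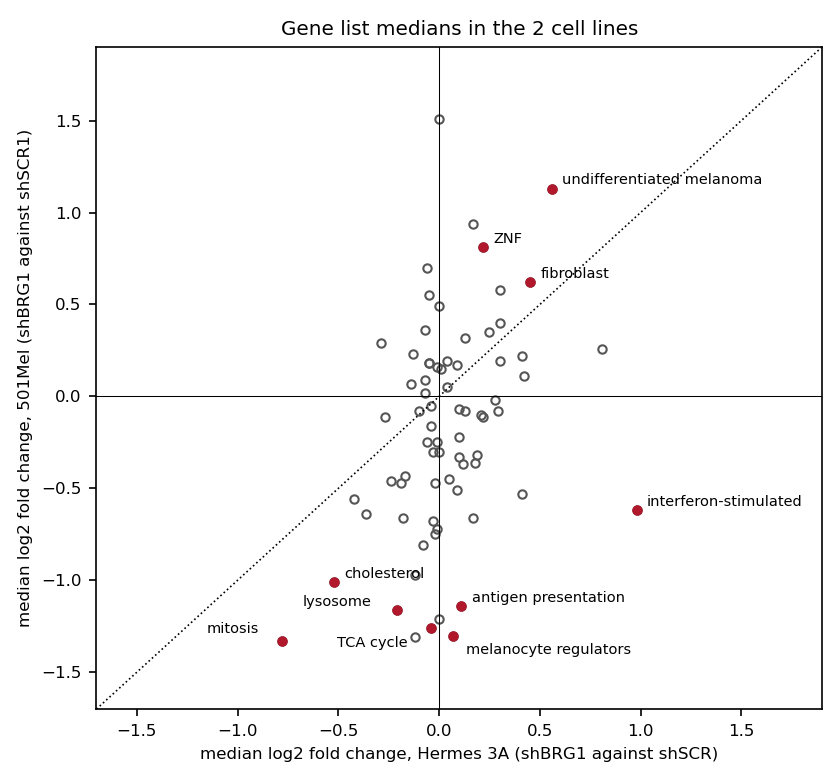
Median log2 fold change of each gene list with shBRG1 in Hermes 3A melanocytes (horizontal axis) and in 501Mel cells (vertical axis), from members tested in the fit of both lines; red points are labelled and the dotted line marks equal medians. Interferon-stimulated genes lie at 0.98 and -0.62, while mitosis and cholesterol genes are below 0 on both axes.

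Single genes showed the same contrast. The largest differences among genes with at least 1000 counts in one of the 4 groups included OSBPL10, with log2 fold changes of -5.69 in 501Mel and 0.56 in Hermes 3A cells, and NOX5, with -7.26 and -0.75. ANXA1 rose in both, by 6.96 and 0.74, from 218 CPM in Hermes 3A control cells, where it was not silent. ANKRD1 and KRTAP2-3, among the largest rises of 501Mel cells, were at 0.12 CPM or less in every Hermes 3A sample. IGFN1, an immunoglobulin-like and fibronectin domain gene, had 0 counts in every Hermes 3A shSCR sample, and in 501Mel cells it went from 142 to 8.37 CPM against shSCR1 but had a log2 fold change of 1.24 against shSCR2. CCN1 had a log2 fold change of 3.70 in 501Mel and -0.49 in Hermes 3A cells, and CDKN2B 3.30 and 0.29.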

How the data were processed

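RNA was prepared from 501Mel cells infected with shSCR1 or shBRG1 (3 replicates each), depleted of ribosomal RNA and made into cDNA libraries, which were treated with a duplex-specific nuclease (a step that lowers abundant sequences) before sequencing. Differences among highly abundant transcripts may therefore be compressed. The deposited values are the authors' unnormalized counts of reads on each Ensembl gene, 1 table per replicate. The submitters' processing notes name CASAVA 1.8, TopHat 1.4.1, Bowtie 0.12.7 and the build hg19; the counting program, its annotation and its use of strand are not given in the sources used here. Gene names, types and coordinates were taken from GENCODE 29 (GRCh38) through the Ensembl identifiers, matching 40975 of 44526 identifiers, and promoter sequences from RefSeq. The 42224 genes listed in both groups were filtered with edgeR's filterByExpr by group, leaving 20514.

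Counts were tested in edgeR 4.0.16 on R 4.3.3 with TMM factors, a robust quasi-likelihood fit (glmQLFit, glmQLFTest) and Benjamini-Hochberg adjustment. SE is the absolute log2 fold change over the root of the F statistic. Library-level values were compared by exact permutation tests. The 2-line contrast used 12 samples in 1 fit, with CPM normalized together. On simulated data 200 of 200 changed genes were recovered among 20514, with 0 unchanged genes called. Depth was 32941771 to 51442426 counts in shSCR1 and 40199601 to 46672770 in shBRG1, and counting intervals cover counting error only. The common biological coefficient of variation was 4.74%. Chi-square per degree of freedom between replicates was 2.46 to 10.0, so none was a copy of another.

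The 75 gene lists, by hand or from the study's table of bound genes, were chosen with earlier results of these data known, as was the part of the series described. Named genes were SMARCA4, SMARCA2, MITF and SOX10, and, in each list, up to 2 called members with the largest rise and up to 2 with the largest fall among those with at least 100 counts and no overlap between groups. To these were added the 10 largest rises and falls of protein-coding genes and the 3 of non-coding genes with at least 1000 counts, the 5 largest changes of mean CPM in each direction, and the 3 largest differences between the lines in each direction. Genes of neighbour runs and markers of other cell types were chosen after their values were seen. A gene without a symbol, a few other genes that the rule names, 1 gene list and 1 run of neighbouring genes are not reported here. The alternatives were library sizes, DESeq2 1.42.0, no filter, a minimum of 10 counts in each sample, glmTreat, no fold threshold, the replicate number as a block, shSCR2 or both scramble groups as the control, and each replicate left out. Tables and figures were made in Python 3.11.15 (scipy 1.17.1, numpy 2.4.6, matplotlib 3.10.9, pandas 2.3.3).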

Additional observations from a re-analysis of the deposited data

Results flagged for a closer look

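The effect of shBRG1 differed between 501Mel and Hermes 3A cells for many genes, as a contrast of both effects in 1 fit of 12 samples showed (edgeR's quasi-likelihood test, Benjamini-Hochberg adjusted p under 0.05 and a difference beyond 1 on the log2 scale). It was lower in 501Mel cells for 3224 of the 21697 genes tested and higher for 2610. Of the 145 genes named above, 126 had such a difference, 77 lower and 49 higher. Their adjusted p went up to 0.014, that of IGFN1. Most named genes were chosen for a large change in 501Mel cells, and some for a large difference between the lines. This choice favours a called difference, so the share among named genes does not measure how common such differences are. The differences below are the log2 fold change in 501Mel minus that in Hermes 3A cells, and no explanation of any of them was tested. IGFN1 and ANKRD1 had 0 counts in every sample of a group, so that the size of their differences is not fixed by the counts. With shSCR2 as the 501Mel control, an alternative added after seeing the data, 97 of the 126 differences were called in the same direction and 22 kept their sign without a call. Called in the other direction were those of COL6A3 (1.02), H1-2 (1.08) and PAEP (2.65), and CTSB (0.40), INSIG1 (0.33), ITGAX (1.02) and LINC00479 (0.92) had the other sign without a call. For these 7 genes the direction of the difference below depends on shSCR1.

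Among chromatin and transcription genes, the effect was lower in 501Mel cells for SMARCA1 (-1.78), TET1 (-1.71), ATRX (-1.69), PBRM1 (-1.62), DNMT3A (-1.62), PHF10 (-1.25) and SMARCC2 (-1.21), and higher for ZNF177 (4.43), MED10 (1.43) and BMI1 (1.39). Among regulators and products of the melanocyte lineage, the effect was lower in 501Mel cells for TYRP1 (-2.84), IRF4 (-2.80), TFEB (-2.62), PMEL (-2.30), SOX10 (-2.07), GPNMB (-1.91), DCT (-1.83) and MITF (-1.15), and higher for TFE3 (1.36) and LEF1 (1.25). Among neural crest, glial and undifferentiated melanoma genes, the effect was lower in 501Mel cells for APOD (-6.06), DNER (-5.87), SOX8 (-4.51), POU3F2 (-2.74) and S100B (-1.30), and higher for DKK1 (3.97), MSX1 (2.47) and FOSL1 (2.00). Among cell division, repair and survival genes, the effect was lower in 501Mel cells for BCL2A1 (-3.30), H1-2 (-2.91), CENPF (-2.07), CDK2 (-2.07), MCM6 (-1.97), HMMR (-1.85), PCNA (-1.75), CCND1 (-1.43) and PARP1 (-1.42), and higher for CDK6 (3.35), CDKN2B (3.01), PMAIP1 (2.30) and GADD45A (2.04). Among genes of carbon and lipid metabolism, the effect was lower in 501Mel cells for OSBPL10 (-6.25), PPARGC1A (-4.35), SCD (-3.03), PFKP (-2.56), SUCLG2 (-2.18), PDK3 (-1.86), OGDH (-1.85), CPT2 (-1.83), CBS (-1.55), NDUFS1 (-1.19) and INSIG1 (-1.03), and higher for DDIT3 (2.54) and MT-ND6 (1.39). Among genes of protein synthesis, folding and the lysosome, the effect was lower in 501Mel cells for CTSF (-2.77), WIPI1 (-2.55), ATP6AP1 (-2.20), PDIA3 (-1.92), CTSB (-1.87), RPL3 (-1.48), NCL (-1.48), RPL19 (-1.22) and CCT7 (-1.22), and higher for GAR1 (1.68) and FBL (1.23).

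Among signalling and cytoskeletal genes, the effect was lower in 501Mel cells for NOTCH3 (-4.29), GDF11 (-2.75), APCDD1 (-2.48) and MYH10 (-1.06), and higher for ANKRD1 (11.35), CCN1 (4.19), CCN2 (3.71), VGLL3 (3.49), TRAF1 (2.77), CSF1R (2.65), ZYX (2.23), ID3 (2.03), JUN (1.91), RNF43 (1.91), NFKBIA (1.24) and DDR1 (1.22). Among immune genes, the effect was lower in 501Mel cells for OASL (-6.37), ITGAX (-3.20), ISG20 (-3.19) and HLA-DPA1 (-2.88), and higher for GBP1 (1.07). Among matrix, adhesion and guidance genes, the effect was lower in 501Mel cells for SEMA5A (-4.11), MMP2 (-3.75), COL6A3 (-3.04), ITGA7 (-3.02), PLXNC1 (-2.51) and CDH3 (-1.66), and higher for CLDN1 (6.16), SERPINB2 (4.97), COL20A1 (4.90), COL5A1 (3.19), NRP1 (2.88) and ITGA10 (2.28). Among genes of neurons, muscle, skin and germ line, the effect was lower in 501Mel cells for ATP10A (-3.57), NLGN2 (-3.41), KCNAB2 (-3.21), LDB3 (-2.80), HOXA13 (-2.53) and TDRD7 (-1.84), and higher for KRTAP2-3 (8.89), TCHH (4.51), BEX1 (4.33), MAGEA10 (4.05), HOXB6 (2.20), S100A11 (1.85), HOXB2 (1.57), MAP2 (1.45) and HOXB8 (1.35). Among the remaining genes, the effect was lower in 501Mel cells for IGFN1 (-10.00), NOX5 (-6.51), LINC00112 (-4.74), PAEP (-4.13), LINC00479 (-3.69), ABCA2 (-3.26), DIPK1A (-2.85) and LINC02099 (-2.42), and higher for ANXA1 (6.22), MARCHF8 (4.52), LINC00665 (3.94), DUBR (3.71) and SLAIN2 (1.11).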

How the results depend on the processing

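The numbers of down- and up-regulated genes (3571 and 4453) were 3914 and 4681 with DESeq2, 4348 and 6009 without a filter, 2899 and 3130 with glmTreat and 3029 and 4274 against both scramble groups pooled. The cause of larger shifts was not tested except where the construction shows it. Without a fold threshold 8022 and 8442 genes passed, a minimum of 10 counts in each of the samples left fewer genes to test and 2567 up-regulated, and against shSCR2 alone 6879 were up-regulated. The counts of genes with a lower or higher effect in 501Mel than in Hermes 3A cells were 1851 and 1709 under that minimum, and 4545 were higher with shSCR2 as the control, an alternative added after seeing the data. With genes grouped by the shSCR1 mean, which places genes low in that group in the lowest decile, the shares down and up were 0% and 84.3% in the lowest decile and 32.1% and 1.22% in the highest. Against shSCR2 alone 3 genes changed direction, CTSB (0.38), H1-2 (1.43) and IGFN1 (1.24). Leaving out each replicate gave 3694 to 3814 down-regulated and 4486 to 4805 up-regulated genes, 2816 to 3380 lower and 2387 to 2879 higher effects in 501Mel cells, and differences of 3720 to 3900 genes detected, 3.69 to 4.21 percentage points of mitochondrial, -2.17 to -2.07 of protein-coding and 0.963 to 1.04 of small RNA counts. Of 145 named genes, 120 kept their direction and call under every alternative run, 20 lost their call against shSCR2 alone and 6 against the pooled control. Of 150 counts of list members called in 1 direction, 86 moved by more than 1.5 times against shSCR2 alone, 57 with library sizes, 46 with the minimum of 10 counts, 43 against the pooled control, 15 with glmTreat, 10 without a filter and 2 with DESeq2. The replicate numbers did not pair the samples: deviations from group means correlated at -0.0137, -0.00849 and 0.0436 between same-numbered samples, and not every sample correlated best with its own number. With the replicate number as a block 3566 genes were down- and 4448 up-regulated, and no named gene changed its call. Depth limits the low genes: 7635 of the 20514 had under 100 counts per sample.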
